A study of Mus musculus with 8 samples.

Results

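The group described here is the eukaryotic translation initiation factors (eIFs) of mouse oocytes, taken from the count table by gene name. Of 46078 genes in the table, 62 have a name that starts with Eif1 to Eif6. Of these, 5 numbered pseudogenes were left out, as were Eif2ak2, Eif4enif1 and Eif4e1b, which left 54 genes. The rule reads names and no expression value, but it was set with earlier results of these data known. The 54 include the eIF subunits, the regulators named after them (the eIF2 kinases and the eIF4E-binding proteins) and 2 names that are no initiation factors, the noncoding gene Eif2c5 and the pseudogene Eif5al3-ps. A total of 50 genes passed the filter on low counts, which 19241 genes of the table passed, and all 50 met it within each group alone.

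Initiation brings the small ribosomal subunit, the initiator tRNA and the mRNA together. eIF2 carries the initiator tRNA and is recharged with GTP by eIF2B, and kinases that phosphorylate its alpha subunit slow this exchange. eIF4E binds the cap, eIF4G and the helicase eIF4A join it, and the 4E-BPs compete with eIF4G for eIF4E. eIF1, eIF1A and eIF3 hold the small subunit ready for scanning, and eIF5 and eIF5B act when the start codon is found. Fully grown oocytes are transcriptionally silent and live on stored maternal mRNAs, whose translation is tied to the length of their poly(A) tails. The CCR4-NOT complex, with its catalytic subunits CNOT7 and CNOT8, shortens these tails.

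RNA was measured in 8 libraries of fully grown oocytes at the germinal vesicle (GV) stage, before meiotic resumption, each from 100 oocytes. CNOT7&8 KO oocytes (4 libraries) came from females with floxed Cnot7 and Cnot8 alleles and the Zp3-Cre transgene, whose promoter is active in growing oocytes, so both genes are deleted in the oocyte and not in the surrounding follicle cells. Control oocytes (4 libraries) came from females labelled Zp3-Cre, and both groups therefore carry Cre. Females on a C57BL/6J background were 4 weeks old and had been primed with PMSG. The labels do not tie libraries to animals, so p-values measure the spread between these libraries only. The cells were oocytes by their markers: all 12 genes of an oocyte list were tested, with summed levels of 19310 to 22423 CPM in control and 15887 to 18393 CPM in KO libraries. Of the 12, 7 were lower and 1 higher in KO, with a median log2 fold change of -0.33. Among all tested genes at 100 CPM or more in control, as all of the 12 but Figla were, 60.8% were lower and 4.93% higher. The part of these markers in the results below was not tested. CPM are normalized, with library sizes scaled by edgeR's TMM method, except in the filters on low counts and where unscaled totals are named. Values are given as mean ± SD of 4 libraries or in the order of replicates 1 to 4.

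The targeted genes were examined first. Cnot8 fell from 168 ± 20.0 to 35.2 ± 1.40 CPM, with a log2 fold change of -2.25 ± 0.12 (SE), and its groups did not overlap. Cnot7 fell from 933 ± 77.3 to 719 ± 70.8 CPM (log2 fold change -0.38 ± 0.11), also without overlap. The counts cover whole genes, so reads outside the deleted exons are included. Control libraries held 14943671 to 44092144 counts, and KO libraries 8639444 to 26784110. The deepest library of each group, control replicate 1 and KO replicate 4, stood apart from the others in these genes: their deviations from the group means went up with transcript length (Spearman's rho across the 50 genes 0.55 in each), whereas the other 6 libraries had values of -0.60 to -0.21. Without both libraries, chosen after seeing the data, 8 initiation factor genes were higher and 35 lower. A list of granulosa and cumulus cell markers moved with the genotype. Of 11 tested, 7 were higher and 1 lower in KO, beside 31.2% and 24.1% of all tested genes. Among genes under 10 CPM in control, as most of the 11 were, 43.2% were higher and 7.46% lower. The summed level of the list was 128 to 179 CPM in control and 244 to 306 CPM in KO libraries. Foxl2, a defining granulosa marker, had at most 3 counts in every library, and Fshr, the FSH receptor, was at 1.58, 1.18, 0.952 and 1.46 CPM in the control libraries and 3.47, 5.76, 2.90 and 3.34 CPM in the KO libraries. The part of these cells in the results below was not tested. In bulk RNA, fewer cells of a type and less RNA per cell cannot be told apart.

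With TMM scaling over all tested genes, most initiation factor mRNAs were lower in CNOT7&8 KO oocytes, by less than 2-fold in most cases. A few scarce ones were much higher. Of the 50 genes tested, 31 (62.0%) fell and 8 (16.0%) rose at a false discovery rate (FDR) of at most 0.05, and 11 did not pass. Among all tested genes, 24.1% fell and 31.2% rose, and among the 8726 with a mean of at least 10 CPM, 41.9% fell and 20.9% rose. With the added demand of a 2-fold change, which defines a DEG here, 7 initiation factor genes (14.0%) fell and 4 (8.00%) rose, beside 6.56% and 23.8% of all tested genes and 7.68% and 9.65% of those of at least 10 CPM. The median log2 fold change of the 50 genes was -0.45, beside 0.12 over all tested genes and -0.26 over those of at least 10 CPM. The libraries of the groups did not overlap for 36 genes (72.0%), of which 29 (58.0%) were lower and 7 (14.0%) higher in KO, beside 48.4%, 21.4% and 27.0% of all tested genes.

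The direction went with the level in control oocytes, as it did over the whole table, and the control level is itself part of the fold change. Of 6 initiation factor genes under 10 CPM in controls, 5 rose and 0 fell, beside 43.2% and 7.46% of all tested genes at such levels. Of 13 genes from 10 to under 100 CPM, 2 rose and 8 fell, beside 20.4% and 38.7%. Of 31 genes at 100 CPM or more, 1 rose, the helicase gene Eif4a2, and 23 fell, beside 4.93% and 60.8%. Across the 50 genes, Spearman's rho of the log2 fold change was -0.37 with the control level, 0.41 with the length of the 3′UTR, 0.32 with transcript length and -0.35 with GC content. These genes share the same libraries and are not independent replicates.

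The library scaling bore on the size of this shift and on whether most of the 50 genes were called lower. Scaling by library size alone moved the median log2 fold change of all genes up by 0.29 and left 18 initiation factor genes lower and 8 higher, with 1 lower and 6 higher DEGs. TMM on genes of at least 10 CPM moved it by 0.25 and gave 20 lower and 8 higher, with the same numbers of DEGs. Upper quartile scaling moved it by 0.10 and gave 29 lower and 8 higher, with 3 lower and 4 higher DEGs. The median of the 50 genes minus that of genes of at least 10 CPM was -0.19 under each scaling. In all 20 settings tried, 18 genes were lower and 7 higher at an FDR of at most 0.05. The 13 genes whose decrease did not pass with library size alone were Eif1ad, Eif2ak1, Eif2d, Eif2s1, Eif2s2, Eif3b, Eif3f, Eif3h, Eif3k, Eif4a1, Eif4b, Eif5a and Eif6, and all of these but Eif2d and Eif2s2 also did not pass with TMM on genes of at least 10 CPM. The 7 higher in all settings were Eif1a, Eif2a, Eif2ak3, Eif2b5, Eif4a2, Eif4ebp1 and Eif5a2.

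**Figure D1:**
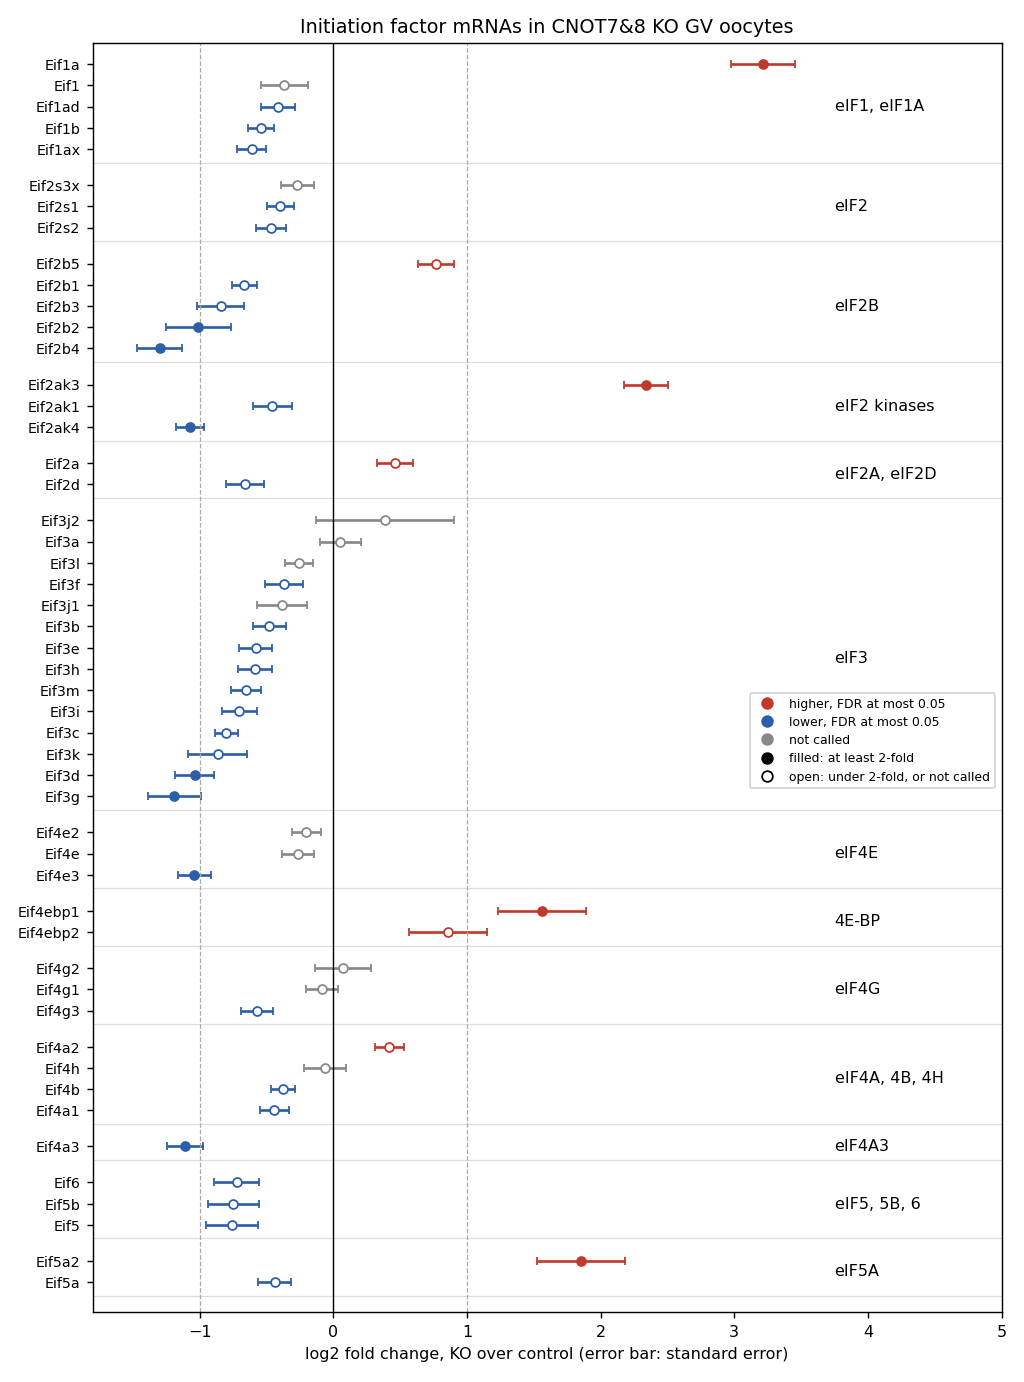
Log2 fold change (KO over control, horizontal axis) of the 50 tested initiation factor genes, grouped by complex, with standard errors as bars, in red for genes that rose, blue for genes that fell (FDR of at most 0.05), grey for the rest, and filled for changes of at least 2-fold. Eif1a at 3.22 and Eif2ak3 at 2.34 lie farthest to the right, and Eif2b4 at -1.30 farthest to the left.

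The cytoplasmic polyadenylation element (CPE) is a U-rich 3′UTR motif through which poly(A) tails of stored mRNAs are shortened or lengthened, and the study examined it in these oocytes. The letters TTTTAT were searched on the transcript strand of the longest annotated 3′UTR of at least 50 bases (GENCODE vM21, GRCm38). They occurred in 25 of the 50 tested initiation factor genes and in 56.2% of 15167 tested protein-coding genes. Of the 8 genes that rose, 7 held the motif (all but Eif2b5), of the 31 that fell, 12, and of the 11 that did not pass, 6. The median 3′UTR length was 1690, 664 and 1788 bases in these sets, so 3′UTR length differed together with the motif, and its part was not tested. Windows of 30 bases around the motif are printed for 3 of the genes that rose most, at the site nearest the annotated 3′ end, and for Eif2s1, whose poly(A) tail the study assayed, with the motif in capitals.
Eif2ak3 site 3: aatacgtttattTTTTATttataaaaattc
Eif5a2 site 5: caagggagattcTTTTATgtatatgacatt
Eif4ebp1 site 1: taaaaagatttaTTTTATgtatatgagtaa
Eif2s1 site 1: aaagctgaatatTTTTATttccaagtattt
Eif2s1 site 2: atacatacatggTTTTATatatatataaac
Eif2s1 site 3: tgttgagagatgTTTTATgccatttatgaa
Eif2s1 site 4: tttactgaaaagTTTTATatttaagagaac
All 7 windows lie on the plus strand. The Eif2ak3 motif is at chr6:70905116-70905121, 124 bases before the annotated end of the 3′UTR, the Eif5a2 motif at chr3:28798256-28798261, 585 bases before it, and the Eif4ebp1 motif at chr8:27275637-27275642, 1032 bases before it. The Eif2s1 motifs are at chr12:78885021-78885026, chr12:78885770-78885775, chr12:78886177-78886182 and chr12:78886888-78886893, at positions 105, 854, 1261 and 1972 of a 3′UTR of 2094 bases. Among the genes that fell, Eif1ax, Eif3m and Eif4e3 hold the motif within 100 bases of the annotated end. The ends of the transcripts in these oocytes were not measured here.

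The kinases that phosphorylate eIF2 moved apart. Eif2ak3 encodes PERK, the kinase of the unfolded protein response at the endoplasmic reticulum. It was at 12.4, 7.50, 11.0 and 9.03 CPM in the control libraries and 48.7, 46.5, 51.5 and 56.0 CPM in the KO libraries. Every KO library was above every control library, the mean was 5.08-fold higher, and the log2 fold change was 2.34 ± 0.17 (adjusted p = 6.12e-07). Eif2ak4 encodes GCN2, the kinase that senses uncharged tRNA. Its levels were 124, 110.3, 104 and 112 CPM in the control libraries and 54.6, 56.1, 49.4 and 53.7 CPM in the KO libraries. The groups were again separate, in the opposite direction, with a log2 fold change of -1.07 ± 0.11 (adjusted p = 6.70e-06). Eif2ak1, the heme-regulated kinase HRI, fell from 171 ± 40.1 to 125 ± 9.26 CPM (log2 fold change -0.46 ± 0.15, adjusted p = 0.0199), and control replicate 1 was its highest library at 231 CPM. The call was lost under 3 other scalings (adjusted p from 0.0508 to 0.297).

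Shares within a family do not depend on the library scaling. Of the summed CPM per kb of these 3 kinases, Eif2ak3 held 3.46%, 2.87%, 4.39% and 3.38% in the control libraries and 22.5%, 20.5%, 23.6% and 22.9% in the KO libraries. Its mean share thus went from 3.52% ± 0.630 to 22.4% ± 1.34, without overlap. Eif2ak4 went from 34.1% ± 3.11 to 20.2% ± 1.35 and Eif2ak1 from 62.3% ± 3.17 to 57.4% ± 1.18. Eif2ak1 held the largest share in all 8 libraries. Eif2ak2, the double-stranded RNA kinase PKR that the choice of names left out, rose from 1.48 ± 0.637 to 5.01 ± 1.88 CPM (log2 fold change 1.71 ± 0.34).

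Of the 3 tested subunit genes of eIF2 itself, 2 fell. All 3 were at 100 CPM or more in control, where 60.8% of all tested genes fell and 4.93% rose. Eif2s1 encodes the alpha subunit, the substrate of these kinases, and was at 145, 130.0, 129.5 and 122 CPM in the control libraries and 101, 105, 93.2 and 102 CPM in the KO libraries. The groups did not overlap, and the log2 fold change was -0.40 ± 0.10 (adjusted p = 0.00546). With library size alone it was -0.11 and did not pass (adjusted p = 0.288), and with TMM on genes of at least 10 CPM it was -0.14 (adjusted p = 0.139). The study measured Eif2s1 mRNA by RT-qPCR relative to spike-in RNA and reported no significant difference, while the protein was higher in KO. CPM are relative to the scaled library, so these measures differ in kind. The study also reported that Eif2s1 mRNA moved to heavier polysomes and had a longer poly(A) tail in KO oocytes. Among proteins that were higher in KO, it found translation initiation genes enriched. Eif2s2, the beta subunit, fell from 465 ± 64.8 to 336 ± 13.8 CPM (log2 fold change -0.47 ± 0.11). Eif2s3x, an X-linked gamma subunit gene, was at 129.7, 102, 101 and 99.1 CPM in the control libraries and 88.0, 87.4, 81.3 and 101 CPM in the KO libraries. It did not pass (log2 fold change -0.27 ± 0.12, adjusted p = 0.0786), and control replicate 1 was far above the other controls. Its Y-linked copy Eif2s3y had 0 counts in all 8 libraries. Of the summed CPM per kb of the 3 subunits, Eif2s1 went from 15.5% ± 0.927 to 15.8% ± 0.803 and Eif2s2 from 72.7% ± 1.08 to 71.0% ± 1.20, both with overlap, and Eif2s3x from 11.8% ± 0.383 to 13.2% ± 0.836, without overlap.

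The poly(A) tail assay of Eif2s1 in the study used the primer printed here to show which stretch of the 3′UTR it starts from.
Eif2s1 tail assay primer: aagggagtggcttgatttgaccagagacaa
It matches the sense strand at chr12:78885123-78885152, from position 207 of the 3′UTR, after the first CPE and before the other 3. Tail assays read from the primer to the poly(A) tail, and the end of the annotated transcript lies 1858 bases further on. The only AATAAA polyadenylation signal of this 3′UTR is at chr12:78885300-78885305, 384 bases into it, in the following window.
Eif2s1 signal: aagcaaacatcaAATAAAtttctgggatat
An ATTAAA variant lies at position 590. Which end the Eif2s1 mRNA uses in oocytes was not measured here.

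eIF2B, the exchange factor of eIF2, had 4 subunit mRNAs that fell and 1 that rose. Eif2b1 and Eif2b4 were at 100 CPM or more in control, where 60.8% of all tested genes fell and 4.93% rose. Eif2b2, Eif2b3 and Eif2b5 were from 10 to under 100 CPM, where 38.7% fell and 20.4% rose. Eif2b4, the delta subunit, was at 94.2, 155, 145 and 144 CPM in the control libraries and 58.9, 50.1, 64.5 and 45.4 CPM in the KO libraries. It had the largest decrease of the 50 genes, with a log2 fold change of -1.30 ± 0.17 (adjusted p = 4.94e-05) and no overlap. Eif2b4 was also the only initiation factor DEG that stayed 2-fold lower under every scaling. It overlaps Snx17 on the opposite strand over 204 transcript bases, and how the counting treated strand is not given in the sources used here. Eif2b2, the beta subunit, was at 18.8, 38.7, 34.7 and 35.0 CPM in the control libraries and 16.3, 16.3, 20.2 and 10.4 CPM in the KO libraries. Its log2 fold change was -1.01 ± 0.24 (adjusted p = 0.00374), but control replicate 1 was as low as the KO libraries. Eif2b3 (gamma) fell with a log2 fold change of -0.84 ± 0.18 and Eif2b1 (alpha) with -0.67 ± 0.09. Eif2b5, the catalytic epsilon subunit, was at 21.7, 20.0, 20.1 and 24.7 CPM in the control libraries and 35.8, 31.3, 38.5 and 41.1 CPM in the KO libraries. All KO libraries were above all controls, and the log2 fold change was 0.76 ± 0.13 (adjusted p = 0.000486). Eif2b5 went from 2.91% ± 0.420 to 8.26% ± 1.30 of the summed CPM per kb of the 5 subunits, without overlap. Eif2b4 went from 22.6% ± 3.71 to 15.4% ± 1.70, with overlap, since control replicate 1 (17.1%) lay below KO replicate 3 (17.3%). Eif2b1 was the most abundant of the 5 per kb in each library.

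**Figure D2:**
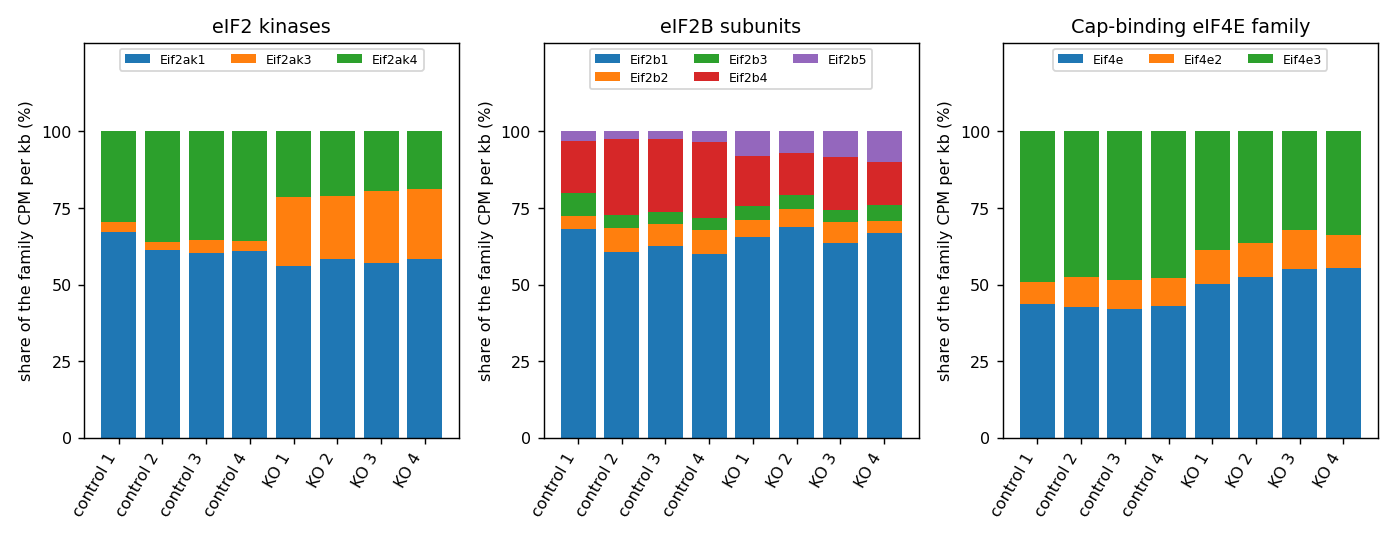
Share of each gene (vertical axis, %) in the summed normalized CPM per kb of its family in each of the 8 libraries (horizontal axis), for the eIF2 kinases, the eIF2B subunits and the eIF4E family. The Eif2ak3 share was 2.87% to 4.39% in control and 20.5% to 23.6% in KO libraries.

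eIF1A is encoded by the X-linked Eif1ax and by the autosomal Eif1a, whose coding sequences are 85.5% identical. Eif1a was at 5.24, 3.16, 6.33 and 3.28 CPM in the control libraries and 35.9, 33.4, 48.7 and 49.6 CPM in the KO libraries. Its mean was 9.31-fold higher in KO, the largest increase of the 50 genes, with a log2 fold change of 3.22 ± 0.24 (adjusted p = 8.98e-07) and no overlap. Eif1ax was at 329, 263, 296 and 279 CPM in the control libraries and 202, 208, 168 and 184 CPM in the KO libraries. It fell, with a log2 fold change of -0.61 ± 0.11, and stayed the more abundant of the pair in every library. The log2 ratio of Eif1ax to Eif1a counts within a library was 6.07 ± 0.40 in control and 2.20 ± 0.43 in KO libraries, a difference of -3.86. Per kb, Eif1ax made up 97.3% of the pair in control and 71.5% in KO libraries.

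The Eif1a values are uncertain because another gene resembles it. Over 434 bases its transcript is 95.2% identical to Gm8332, which went from 0.148 ± 0.0570 to 102 ± 50.2 CPM, so reads of the 2 genes could be exchanged by the counting. Gm8332 rose as well (log2 fold change 9.25 ± 0.49, adjusted p = 9.27e-08) and was above Eif1a in every KO library. The sum of both therefore rose in any case and cannot tell how much of the increase belongs to Eif1a. Eif1 and Eif1b encode eIF1 and a close relative, with coding sequences 81.3% identical. Eif1b was at 198, 185, 189.7 and 185 CPM in the control libraries and 124, 141, 133 and 122 CPM in the KO libraries and fell (log2 fold change -0.54 ± 0.10). Eif1 was at 85.4, 58.7, 55.2 and 52.7 CPM in the control libraries and 41.9, 46.7, 45.1 and 61.8 CPM in the KO libraries and did not pass (log2 fold change -0.37 ± 0.17, adjusted p = 0.0929). Its groups overlapped, with the highest control value in replicate 1, and 13 other genes, most of them processed pseudogenes, have transcripts at least 95% identical over part of it. Of those with counts, the protein-coding Emd, 96.7% identical over 662 bases, had the most, 4540 in all libraries beside 9703 for Eif1. Eif1ad, a nuclear protein with an eIF1A-like domain, fell (log2 fold change -0.41 ± 0.13), a call lost under 4 of the 19 alternatives (adjusted p over the 4 from 0.0582 to 0.394). It overlaps Banf1 on the opposite strand, which had more counts.

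eIF3, the largest initiation factor, had 14 genes, of which 10 fell and 0 rose. Most of the 14 were at 100 CPM or more in control, where 60.8% of all tested genes fell and 4.93% rose. Eif3g, an RNA-binding subunit, was at 83.0, 150.3, 139.9 and 136 CPM in the control libraries and 58.2, 61.4, 64.7 and 38.9 CPM in the KO libraries. Its groups did not overlap, although control replicate 1 was well below the other controls, and the log2 fold change was -1.19 ± 0.20 (adjusted p = 0.000339). Eif3d, a subunit that can itself bind the cap, was at 95.4, 134, 123 and 117 CPM in the control libraries and 59.6, 63.3, 62.1 and 44.3 CPM in the KO libraries. This gene also separated the groups (log2 fold change -1.04 ± 0.15, adjusted p = 9.04e-05). Eif3c had the tightest replicates of the complex, at 255, 258, 265 and 263 CPM in the control libraries and 148, 149.8, 153 and 146 CPM in the KO libraries, and a log2 fold change of -0.80 ± 0.09 (adjusted p = 1.66e-05). The other genes that fell were Eif3k (-0.87), Eif3i (-0.70), Eif3m (-0.65), Eif3h (-0.59), Eif3e (-0.58), Eif3b (-0.48) and Eif3f (-0.37), with log2 fold changes in parentheses. Eif3k overlapped between the groups through control replicate 1, and the Eif3f call was lost under 14 of the 19 alternatives, among them leaving out control replicate 1 or 2 or KO replicate 1, 3 or 4 (adjusted p over the 14 from 0.0508 to 0.615).

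Members of eIF3 that did not pass included its largest scaffold. Eif3a was at 152, 95.7, 136 and 105 CPM in the control libraries and 114, 124, 117 and 150.3 CPM in the KO libraries, with a log2 fold change of 0.05 ± 0.15 (adjusted p = 0.793) and overlapping groups. Eif3l had a log2 fold change of -0.26 ± 0.11 (adjusted p = 0.0584). Eif3j1 encodes the loosely bound j subunit and was at 73.7, 46.5, 44.0 and 46.6 CPM in the control libraries and 35.9, 35.1, 38.5 and 51.7 CPM in the KO libraries (log2 fold change -0.39 ± 0.19, adjusted p = 0.096). Its intron-poor copy Eif3j2, with a coding sequence 99.8% identical, was at 0.641, 0.444, 0.136 and 0.801 CPM in the control libraries and 0.217, 0.878, 0.555 and 0.885 CPM in the KO libraries. These 2 genes cannot be told apart by most reads, and neither passed. Within the complex, Eif3a went from 2.35% ± 0.635 to 3.93% ± 0.812 and Eif3g from 11.2% ± 2.09 to 7.94% ± 1.19 of the summed CPM per kb, both without overlap except that Eif3g in control replicate 1 (8.17%) lay among the KO libraries.

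Of the 3 tested genes of cap-binding proteins, 1 fell and the others did not pass. Eif4e3 encodes a divergent eIF4E relative, abundant in these oocytes, and was at 213, 162, 167 and 163 CPM in the control libraries and 88.8, 90.1, 74.6 and 89.3 CPM in the KO libraries. The groups were far apart, with a log2 fold change of -1.04 ± 0.12 (adjusted p = 2.52e-05). Eif4e, the canonical cap-binding protein, was at 376, 287, 286 and 292 CPM in the control libraries and 229, 257, 254 and 291 CPM in the KO libraries. It did not pass (log2 fold change -0.27 ± 0.12, adjusted p = 0.0782), and KO replicate 4 lay within the control range. Eif4e2, which represses rather than promotes initiation on many mRNAs, was at 44.2, 46.1, 44.9 and 43.4 CPM in the control libraries and 35.5, 38.4, 41.0 and 40.3 CPM in the KO libraries. The groups did not overlap, but the difference did not pass (log2 fold change -0.20 ± 0.11, adjusted p = 0.135). Eif4e3 held 49.1%, 47.6%, 48.5% and 47.8% of the summed CPM per kb of the 3 genes in the control libraries and 38.6%, 36.4%, 32.1% and 33.7% in the KO libraries. Eif4e went from 42.8% ± 0.665 to 53.2% ± 2.43 of the family, and was the most abundant of the 3 per kb in each KO library, whereas Eif4e3 was so in each control library.

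Both tested inhibitors of eIF4E rose from very low levels. They were under 10 CPM in control, where 43.2% of all tested genes rose and 7.46% fell. Eif4ebp1 (4E-BP1) was at 1.02, 1.23, 0.544 and 1.09 CPM in the control libraries and 3.69, 3.24, 3.21 and 1.70 CPM in the KO libraries. Every KO library was above every control library, with KO replicate 4 the lowest of them, and the log2 fold change was 1.56 ± 0.33 (adjusted p = 0.00164). Eif4ebp2 (4E-BP2) was at 3.64, 3.01, 1.77 and 1.68 CPM in the control libraries and 3.91, 3.40, 5.30 and 5.99 CPM in the KO libraries. Its log2 fold change was 0.86 ± 0.29 (adjusted p = 0.025), but control replicate 1 lay within the KO range, and the call was lost under 4 of the 19 alternatives, among them leaving out control replicate 3 or 4 or KO replicate 4 (adjusted p over the 4 from 0.0551 to 0.0818). Eif4ebp3 had 1 count in 1 KO library and 0 in the others. The limit that a count of 0 allows, set at 3 counts, was 0.068 CPM by the unscaled total of the deepest library. By that of the shallowest library it was 0.347 CPM, for counting error only.

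Of the eIF4G scaffolds, which bridge the cap complex and eIF3, only the call for Eif4g3 passed. Eif4g3 was at 90.5, 84.6, 67.2 and 80.8 CPM in the control libraries and 59.5, 49.5, 53.8 and 54.8 CPM in the KO libraries, with a log2 fold change of -0.57 ± 0.12 (adjusted p = 0.00175) and no overlap. Eif4g1, the main eIF4G, was at 154, 126, 122 and 145 CPM in the control libraries and 133, 114, 148 and 124 CPM in the KO libraries. Eif4g2 (DAP5), which lacks the eIF4E-binding part, was at 383, 227, 207 and 198 CPM in the control libraries and 230.1, 240.3, 238 and 356 CPM in the KO libraries. Neither passed, with log2 fold changes of -0.08 ± 0.12 (adjusted p = 0.584) and 0.07 ± 0.21 (adjusted p = 0.794), and in Eif4g2 the deepest library of each group was the highest. Relative to Eif4g3, Eif4g1 went up by 0.48 on the log2 scale within libraries, without overlap.

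The eIF4A helicases, which unwind the 5′UTR, moved in opposite directions. Eif4a1 was at 943, 729.8, 816 and 757 CPM in the control libraries and 601, 639.6, 544 and 605 CPM in the KO libraries and fell (log2 fold change -0.44 ± 0.11, adjusted p = 0.00444). Eif4a2 was at 276, 222, 238 and 229.6 CPM in the control libraries and 313, 306, 313 and 359.9 CPM in the KO libraries and rose (log2 fold change 0.42 ± 0.11, adjusted p = 0.00542). Neither gene overlapped between the groups. The log2 ratio of Eif4a1 to Eif4a2 counts was 1.75 ± 0.03 in control and 0.89 ± 0.14 in KO libraries, and per kb Eif4a1 went from 83.7% to 73.8% of the pair. Under library size alone the Eif4a1 decrease did not pass, while the Eif4a2 increase did. Eif4b, a cofactor of eIF4A, fell (log2 fold change -0.37 ± 0.09), and Eif4h, another, did not pass (log2 fold change -0.06 ± 0.16, adjusted p = 0.745). Eif4a3, a relative that belongs to the exon junction complex and not to cap-dependent initiation, was at 193, 274, 246 and 252 CPM in the control libraries and 107, 107, 135 and 97.2 CPM in the KO libraries. It fell, with a log2 fold change of -1.11 ± 0.14 (adjusted p = 3.52e-05) and no overlap.

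**Figure D3:**
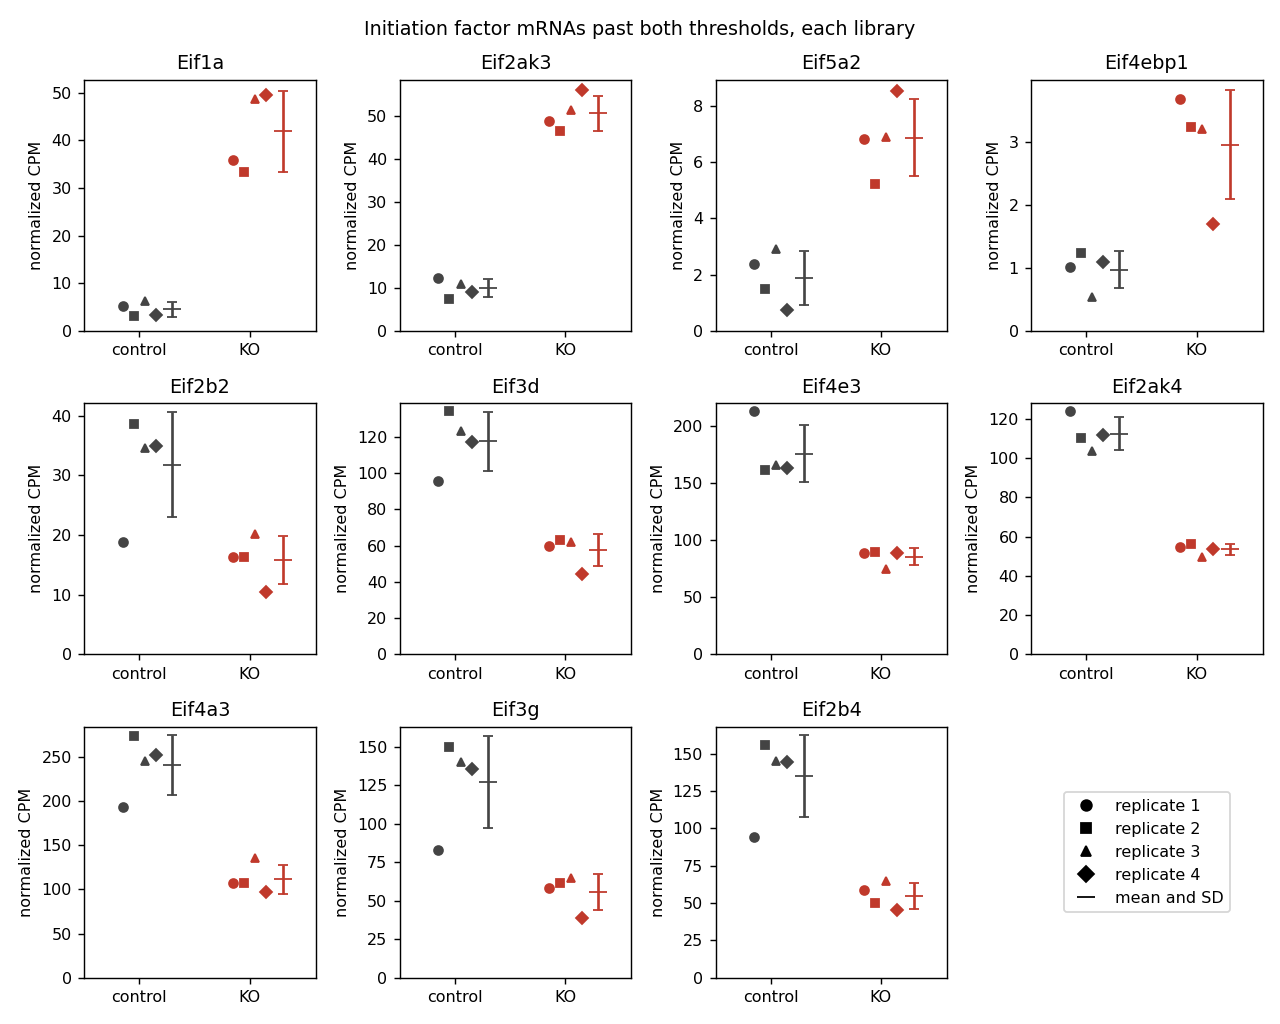
Normalized CPM (vertical axes, each from 0) of the 11 initiation factor genes that passed both thresholds, in each control and KO library, with the mean and SD of each group as a bar and marker shapes for the replicate number. In Eif2b2, control replicate 1 at 18.8 CPM lies among the KO libraries, and in the other 10 genes the groups do not overlap.

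The genes of 3 factors that act around subunit joining fell. All were at 100 CPM or more in control, where 60.8% of all tested genes fell and 4.93% rose. Eif5, the GTPase-activating protein of eIF2, fell from 279.9 ± 82.9 to 166 ± 33.7 CPM (log2 fold change -0.76 ± 0.19, adjusted p = 0.0055). Eif5b, the GTPase of subunit joining, fell from 139.7 ± 41.9 to 83.2 ± 13.7 CPM (log2 fold change -0.75 ± 0.19, adjusted p = 0.00525). It shares 421 transcript bases with Rev1 on the opposite strand, which had a similar total count. Eif6, which keeps the large subunit from joining too early, fell from 201 ± 41.1 to 122 ± 20.5 CPM (log2 fold change -0.72 ± 0.17, adjusted p = 0.00302), but its groups overlapped, since KO replicate 3 lay just above control replicate 1 (both 142 CPM after rounding), and the call was lost under 2 of the scalings (adjusted p of 0.0512 and 0.0564).

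eIF5A, which carries the modified amino acid hypusine and helps elongation and termination as well, has 2 genes. Eif5a was at 134, 167, 158 and 171 CPM in the control libraries and 122, 118, 128 and 96.2 CPM in the KO libraries and fell (log2 fold change -0.44 ± 0.12, adjusted p = 0.00887). Eif5a2 was at 2.38, 1.48, 2.93 and 0.728 CPM in the control libraries and 6.84, 5.22, 6.90 and 8.55 CPM in the KO libraries and rose (log2 fold change 1.85 ± 0.33, adjusted p = 0.000546). The groups were separate for both genes. Per kb, Eif5a still made up 98.3% of the pair in KO libraries, beside 99.6% in control. Eif2a and Eif2d, which encode alternative carriers of the initiator tRNA and not subunits of eIF2, also differed in direction. Eif2a rose from 51.5 ± 7.75 to 70.8 ± 6.34 CPM (log2 fold change 0.46 ± 0.13) and Eif2d fell from 62.6 ± 8.72 to 39.7 ± 5.19 CPM (log2 fold change -0.66 ± 0.14), each without overlap. Serp1 overlaps Eif2a and Rassf5 overlaps Eif2d on the opposite strand.

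Ratios of paralogs within a library were compared for 12 of 15 pairs, the other 3 having a partner that was not tested. The groups did not overlap in 6 pairs, Eif1ax/Eif1a, Eif5a/Eif5a2, Eif4a1/Eif4a2, Eif4e2/Eif4e3, Eif4e/Eif4e3 and Eif4g1/Eif4g3. For each of these 6 the two-sided exact permutation test gave p = 0.0286, the smallest that 70 assignments of the libraries allow, and 0.0571 after adjustment over the 12 pairs, so 0 pairs passed. The differences in the log2 ratio, KO minus control, were -3.86, -2.45, -0.86, 0.83, 0.77 and 0.48 in that order. By counts in control, the scarcer gene gained on the abundant one in the first 3 pairs and in Eif4e2/Eif4e3. In Eif4e/Eif4e3 and Eif4g1/Eif4g3, the more abundant gene gained. In the other 6 pairs the groups overlapped, among them Eif4e/Eif4e2 (difference -0.058, exact permutation p = 0.743) and Eif4ebp1/Eif4ebp2 (0.66, p = 0.286).

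**Figure D4:**
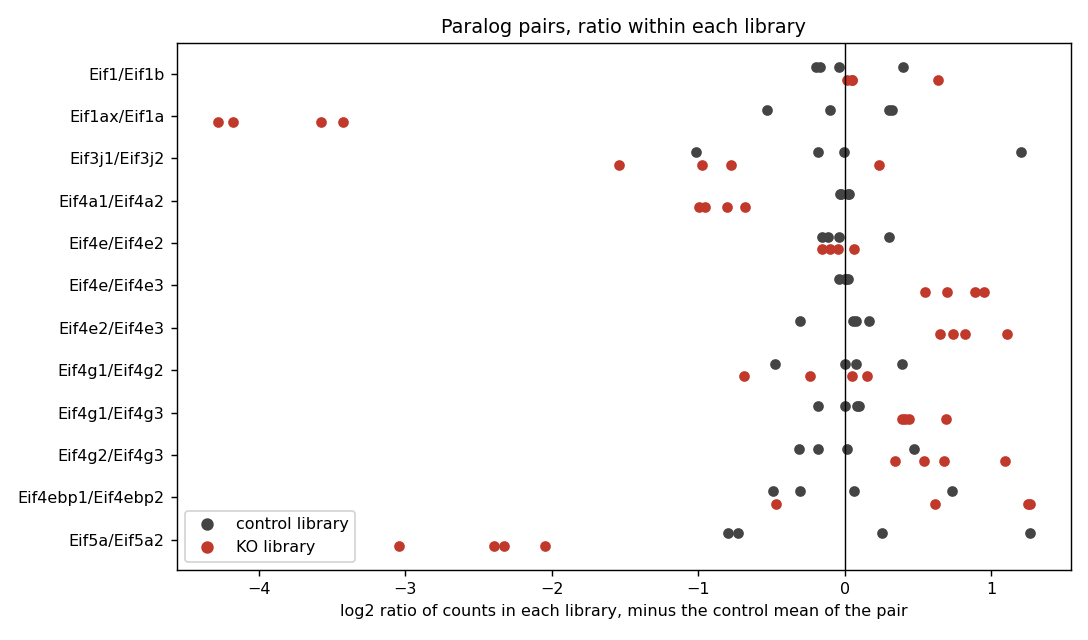
Log2 ratio of the counts of 2 paralogs in each library (horizontal axis), with the control mean of the pair subtracted, for the 12 pairs compared. Black points are control libraries and red points KO libraries, and in 6 pairs the colours do not overlap, with Eif1ax/Eif1a shifted by -3.86 and Eif5a/Eif5a2 by -2.45.

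Levels were compared between genes as CPM per kb of the longest annotated transcript. Eif4a1 was the most abundant initiation factor mRNA in all 8 libraries, at 457 ± 53.4 and 337 ± 22.5 CPM per kb in control and KO. Next in control oocytes came Eif2b1 (184), Eif1b (183) and Eif2s2 (183 CPM per kb), whose ranges overlapped. Eif3j2, Eif5a2, Eif4ebp2 and Eif4ebp1 were the scarcest of those tested, each under 1 CPM per kb in control oocytes. Eif1a went from 1.57 to 14.6 CPM per kb and Eif2ak3 from 2.21 to 11.2, both of which stayed far below Eif4a1.

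**Figure D5:**
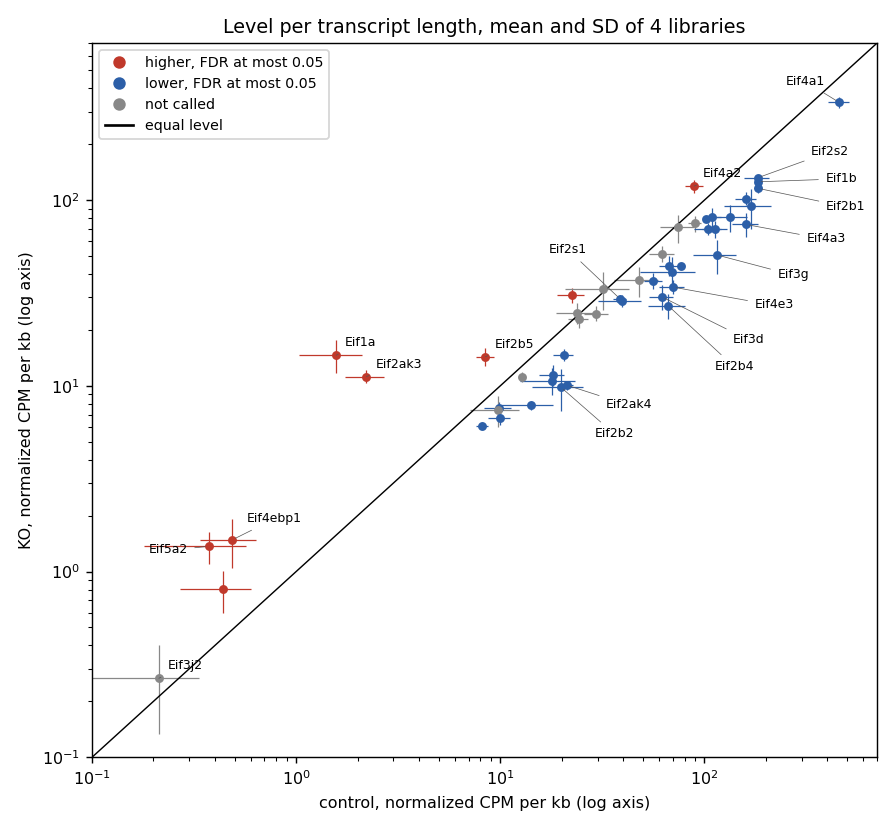
Mean normalized CPM per kb of the 50 tested genes in control (horizontal log axis) and KO oocytes (vertical log axis), with SD bars of 4 libraries and a line of equal level. Most abundant genes lie below the line, among them Eif4a1 at 457 and 337 CPM per kb, and the scarce Eif1a, Eif2ak3, Eif5a2 and Eif4ebp1 lie above it.

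Other genes of translation were examined by lists, to be read beside the 31.2% of all tested genes that rose and the 24.1% that fell. Elongation factor genes were mostly lower: of 8 tested, 6 fell and 1 rose. All 8 were above 10 CPM in control. Of all tested genes from 10 to under 100 CPM in control, 38.7% fell and 20.4% rose, and of those at 100 CPM or more, 60.8% and 4.93%. Eef2, the translocase, fell (log2 fold change -1.06 ± 0.28), as did its kinase gene Eef2k (-1.18 ± 0.13), and Eef1g rose (0.35 ± 0.13). Of 7 termination and recycling genes, 3 fell and 0 rose, with the ribosome rescue gene Pelo at -1.51 ± 0.24. Of 13 initiation helper genes, 5 rose and 3 fell. Among the 5, Bzw1 (1.15 ± 0.13) and Bzw2 (1.45 ± 0.18) encode mimics of eIF5, and Impact (1.40 ± 0.25) encodes an inhibitor of GCN2, the kinase whose own mRNA fell. Of 11 genes of cap signalling through mTOR and the MNK kinases, 3 rose and 3 fell, so the counts of both these lists were near those of all genes. Mknk2, a kinase of eIF4E, rose (1.19 ± 0.23), whereas its relative Mknk1 fell (-0.75 ± 0.10). Of the eIF4E-related genes left out by name, Eif4enif1, the eIF4E transporter, fell from 413 ± 91.1 to 167 ± 16.6 CPM (log2 fold change -1.30 ± 0.15), and the oocyte eIF4E relative Eif4e1b fell from 456 ± 43.6 to 321 ± 18.8 CPM (-0.51 ± 0.10).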

How the data were processed

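RNA-seq of 8 libraries of mouse GV oocytes was analyzed, 4 labelled CNOT7&8 KO and 4 labelled Zp3-Cre, each from 100 oocytes, with groups and replicate numbers taken from the labels. The authors ran the nf-core/rnaseq pipeline, mapped 150-base read pairs to GRCm38 (mm10) with STAR 2.6.1d and deposited raw counts per gene for each library, without normalization. The submitters' notes also name edgeR 3.11. The counting route within the pipeline, its annotation and its strand setting are not given in the sources used here, so counts of overlapping and near-identical genes are uncertain. Libraries of different depth or fragment length, and PCR duplicates, can shift single counts. The paper names a stranded mRNA kit and the labels a stranded total RNA kit, both described with ribosomal RNA removal.

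The members and all lists were chosen with earlier results of these data known. The counts of all genes with at least 0.2 CPM in 2 libraries were fitted in edgeR 4.0.16 (R 4.3.3) with TMM scaling and the quasi-likelihood test, with Benjamini-Hochberg adjustment over 19241 genes. A gene was called a DEG where the adjusted p was 0.05 or less and the change 2-fold or more. The fit was tested on simulated data. Log2 ratios of paralogs had 0.5 counts added and were compared with exact permutation tests over 70 assignments. Named with every library's value are DEGs, the members with the 3 largest increases and decreases, members of the paralog pairs and Eif2s1. Eif2ak1, Eif2b5, Eif3a, Eif3c, Eif3l, Eif6, the kinase shares, the other complexes' shares and the genes named from other lists were added after their values were seen. Lengths, 3′UTRs and coordinates came from GENCODE vM21, which held 98.0% of the table's gene identifiers and all 54 members. Near-identical transcripts were found with BLAST+ 2.17.0, at 95% identity over 150 bases. Figures were drawn with matplotlib 3.10.9.

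Total counts ranged from 8639444 to 44092144, and 3 counts made 0.347 CPM by the unscaled total of the shallowest library. Alternatives were edgeR's exact test, DESeq2 1.42.0, other scalings, filters and fold thresholds, narrower member lists, the replicate number as a block, and leaving out each library. Leaving out both deepest libraries and thinning all libraries to the shallowest were added after seeing the data. The proteome, polysome and tail measurements of the study were not analysed here.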

Additional observations from a re-analysis of the deposited data

Results flagged for a closer look

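In 12 of the 100 groups of 4 libraries examined (50 genes, 2 genotypes), 1 library lay far from the other 3 by Dixon's test, where chance alone flags about 5. Control replicate 1, the deepest library, was the distant one in 8 of the 12, KO replicate 4, the next deepest, in 3, and KO replicate 3 in 1. In control replicate 1, Eif4g2 was at 383 CPM (other controls 198 to 227), Eif4e at 376 (286 to 292), Eif2s3x at 129.7 (99.1 to 102), Eif3j1 at 73.7 (44.0 to 46.6), Eif2ak1 at 231 (144 to 156) and Eif4e3 at 213 (162 to 167). In the same library Eif2d, at 49.6 CPM (65.6 to 68.1), and Eif3k, at 93.2 CPM (171 to 176), were low.

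In KO replicate 4, Eif4a2 was at 359.9 CPM (other KO libraries 306 to 313), Eif4g2 at 356 (230.1 to 240.3) and Eif5b at 104 (75.6 to 77.1). In KO replicate 3, Eif4e3 was at 74.6 CPM (88.8 to 90.1). Eif4g2 was highest in the deepest library of both groups. Without both deepest libraries, Eif1, Eif2s3x, Eif3j1, Eif3l and Eif4e also fell at an FDR of at most 0.05, and Eif3f no longer did.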

How the results depend on the processing

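Across 20 settings, 7 initiation factor genes stayed higher and 18 stayed lower. The numbers at an FDR of at most 0.05 changed by over 1.5 times where the library scaling changed: 18 genes were lower with library size alone and 20 with TMM on genes of at least 10 CPM, beside 2618 and 2865 of all genes, and 17 other translation genes were higher with either. DEGs that were lower numbered 1 with library size alone, 1 with TMM on genes of at least 10 CPM, 3 with the upper quartile, 4 with a filter of 1 CPM in 4 libraries and 19 at 1.5-fold. Over all genes, lower DEGs numbered 587 and 628 under the first 2 scalings and 3212 at 1.5-fold, and higher DEGs 2882 with the stricter filter. Core factors alone gave 3 higher genes and 1 higher DEG, and members of at least 10 CPM gave 5 and 2. The median log2 fold change was -0.16 with library size alone, -0.35 with the upper quartile, -0.20 with TMM on genes of at least 10 CPM, -0.38 with the stricter filter and -0.38 without both deepest libraries, and -0.48 to -0.37 when 1 library was left out, with -0.37 without control replicate 1. The cause was not tested.

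Reversals of sign concerned genes that did not pass. With library size alone the log2 fold changes were 0.21 for Eif4h, 0.21 for Eif4g1, 0.083 for Eif4e2, 0.023 for Eif3l, 0.023 for Eif4e and 0.017 for Eif2s3x. With TMM on genes of at least 10 CPM they were 0.17 for Eif4h, 0.17 for Eif4g1 and 0.046 for Eif4e2, and with the upper quartile 0.029 for Eif4h and 0.016 for Eif4g1. Eif4h was at 0.0032 with the stricter filter, and Eif4g1 at 0.0025 without both deepest libraries. With 1 library left out, values of both signs were found for Eif4g2 (-0.068 to 0.34), Eif3a (-0.049 to 0.17) and Eif4h (-0.18 to 0.037).

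The labels do not say whether equal replicate numbers mark paired libraries. The deviations of same-numbered libraries correlated at -0.22 to 0.23, which cannot decide this, since the deepest library of each group deviated from the others. With the replicate number as a block, 8 genes were higher and 29 lower, and each of the 6 paralog ratios whose groups did not overlap had an exact permutation p = 0.125, the smallest that sign flips over 4 pairs allow, at the same differences (Eif1ax/Eif1a -3.86, Eif5a/Eif5a2 -2.45, Eif4a1/Eif4a2 -0.86, Eif4e2/Eif4e3 0.83, Eif4e/Eif4e3 0.77 and Eif4g1/Eif4g3 0.48). Control replicate 1 correlated most with KO replicate 4 (0.53). Leaving out 1 library moved the ratio of Eif4e/Eif4e2 between -0.11 and 0.043, the latter without control replicate 1, and that of Eif4g2/Eif4g3 between 0.52 and 0.82, whose groups did not overlap without control replicate 1.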
